A study of Homo sapiens with 4 samples.

Results

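Focal adhesion plaques were described here through 10 genes: the integrin-actin linkers TLN1, TLN2, VCL and ZYX, the scaffolds PXN, BCAR1 and ILK, and the tyrosine kinases PTK2 (FAK), PTK2B (Pyk2) and SRC. They were chosen by gene symbol for the place of their proteins in the plaque, and all 10 were found among the 35993 genes of the table, 19319 of which are protein-coding. The cells were MDA-MB-231, a human triple-negative breast cancer cell line with mesenchymal features. They had been transfected either with one siRNA against CTGF (siCTGF; gene symbol CCN2, a secreted matricellular protein) or with one control siRNA (siControl), and were given 50 µM kahweol, a coffee diterpene, for 48 h or left untreated. The 4 groups were siCTGF cells with kahweol, siControl cells with kahweol, untreated siCTGF cells and untreated siControl cells. Each was measured in 1 RNA-Seq library, so no condition has a replicate, and a vehicle for the untreated cells is not named in the labels.

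In a focal adhesion, integrins that hold the extracellular matrix bind talin on their cytoplasmic side, and talin under tension opens sites for vinculin, which ties the complex to actin. Paxillin, p130Cas (BCAR1) and the complex of ILK with PINCH and parvin are scaffolds of the same plaque, and zyxin joins older plaques and stress fibers under force. FAK and SRC form a kinase pair that phosphorylates paxillin and p130Cas, and Pyk2 is the second member of the FAK family. These proteins are best known for cell spreading, force transmission and migration, and they are regulated to a large part at the protein level, which RNA-Seq does not measure.

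The total count was 47276653 in siCTGF cells with kahweol, 44781516 in siControl cells with kahweol, 51830429 in untreated siCTGF cells and 59129784 in untreated siControl cells. Mitochondrial rRNA took 6.01% and 4.33% of counts in the siCTGF and siControl libraries with kahweol, against 3.11% and 3.94% in the untreated siCTGF and siControl libraries, and its part in the results below was not tested. VIM and CD44, known markers of this line, were at 2082 TPM or more and at 97.0 TPM or more in every library. Estrogen receptor mRNA (ESR1) had 0 to 6 counts and progesterone receptor mRNA (PGR) 9 to 37, whereas ERBB2 was present at 20.1 to 31.5 TPM. The 14 marker genes of leukocytes, fibroblasts and endothelium summed to 3.28 and 4.11 TPM in siCTGF and siControl cells with kahweol, and to 4.41 and 6.49 TPM in untreated siCTGF and siControl cells. All 14 were under 2 TPM in every library, and 3 to 6 of them were at 0; their part in the results was not tested. CTGF, the target of the siRNA, had 31.8 CPM in siCTGF and 186 CPM in siControl cells with kahweol, and 63.6 CPM in siCTGF and 159 CPM in siControl cells without it. CPM are counts relative to the TMM-scaled library size. The CTGF mRNA was thus depleted with and without kahweol.

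All 10 plaque genes passed the minimum mean count of 10, and their levels can be ordered by TPM, which is a level per transcript length. ILK had the highest level in every library, with 117 and 115 TPM in siCTGF and siControl cells with kahweol and 220 and 208 TPM in untreated siCTGF and siControl cells. It stood above 95.1% to 97.3% of protein-coding genes. TLN1 and VCL took the next places, with TLN1 at 96.1 to 137 TPM and VCL at 60.1 to 140 TPM over the 4 libraries. In the middle of the order were PTK2, PXN, BCAR1 and ZYX, all between 42.1 and 73.2 TPM, whose places changed from library to library. SRC was at 13.0 to 16.7 TPM. The 2 second members of their families were the lowest of the 10: TLN2 was at 2.95 to 6.15 TPM and PTK2B at 1.57 to 6.27 TPM. Together the 10 genes summed to 485 and 524 TPM in siCTGF and siControl cells with kahweol, against 735 and 750 TPM in untreated siCTGF and siControl cells. On the log2(TPM + 1) scale the median of all genes was also lower with kahweol, by a log2 difference of -0.18 in siCTGF and -0.17 in siControl cells. Fewer cells and less RNA per cell cannot be told apart in such bulk libraries, and neither can be read from TPM.

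**Figure D1:**
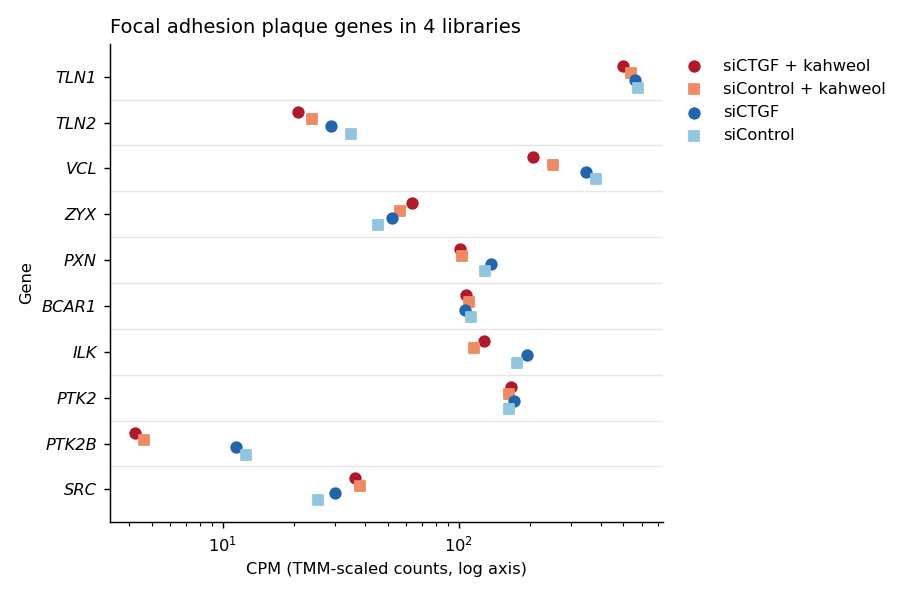
TMM-scaled CPM (log axis) of the 10 plaque genes in the 4 libraries; each point is 1 library, with no replicate and so no error bar. Both kahweol libraries lie below both untreated libraries for TLN1, TLN2, VCL, PXN, ILK and PTK2B and above them for ZYX and SRC, while the points of BCAR1 and PTK2 overlap. The share of all genes tested that separate in this way was not computed. In TPM, ZYX overlaps too, at 44.7 in siControl cells with kahweol and 46.3 in untreated siCTGF cells.

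The first question was what kahweol did to the plaque genes in each siRNA background. VCL, ILK and PTK2B were under 0.7-fold of the untreated library in both backgrounds, TLN2 and PXN were lower by less, SRC and ZYX were higher, and BCAR1, PTK2 and TLN1 differed little. In siCTGF cells, 0 of the 10 genes were over 1.3-fold and 3 were under 0.7-fold, beside 28.4% and 24.2% of the 16599 genes tested. In siControl cells, 1 of 10 was over 1.3-fold and 4 were under 0.7-fold, beside 28.1% and 26.3% of all genes. Both thresholds are those of the study, and a comparison of 2 single libraries carries no test. The median log2 fold change of the 10 genes was -0.30 in siCTGF and -0.21 in siControl cells, and that of all genes was 0.00 and -0.02. Kahweol moved so many genes that these counts are described without calling them particular to the plaque.

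The only fit with a residual degree of freedom took all 4 libraries, with kahweol and siRNA as additive terms. It averages the kahweol effect over both backgrounds and reads any difference between the backgrounds as noise. By the quasi-likelihood test of edgeR (Benjamini-Hochberg adjusted over all genes), 2 of the 10 genes rose (SRC and ZYX) and 5 fell (VCL, ILK, PTK2B, TLN2 and PXN). Of all genes tested, 22.9% were called higher and 23.6% lower with kahweol. TLN1, BCAR1 and PTK2 were not called. DESeq2 called 6 of the 10, beside 39.4% of all genes, and limma-voom 7, beside 48.3%. Nothing in the labels says that the libraries came from separate cultures, so these p-values cannot be read as a spread between cultures. They come from 4 libraries with 1 residual degree of freedom, and each tool moderates a gene's spread with that of other genes.

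Vinculin (VCL, gene ID 7414, chromosome 10, 75757872 to 75881121, plus strand, GRCh37) binds talin and actin and reinforces the plaque under load. It had 206 CPM in siCTGF cells with kahweol and 252 CPM in siControl cells with kahweol, against 348 CPM in untreated siCTGF and 383 CPM in untreated siControl cells. Both kahweol values lay well below both untreated values. The log2 fold change was -0.76 in siCTGF cells (95% counting interval -0.81 to -0.71) and -0.61 in siControl cells (-0.65 to -0.56). VCL fell by 0.68 on the log2 scale in the additive fit (SE 0.07, edgeR adjusted p = 2.93e-04, range over alternatives 4.37e-11 to 0.00302). A stretch of 1109 bases of its span is shared with AP3M1 on the opposite strand, which had 3313 to 5052 counts, against 9138 to 23953 for VCL. The libraries were stranded, but the strand setting of the counting is not given in the sources used here, so that reads of such partners could have been assigned to either gene.

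ILK (gene ID 3611, chromosome 11, 6624938 to 6632105, plus strand, GRCh37) is a pseudokinase that holds PINCH and parvin at the integrin tail. Its level was 128 CPM in siCTGF and 116 CPM in siControl cells with kahweol, against 195 CPM in siCTGF and 177 CPM in siControl cells without it. The fold change was nearly equal in the 2 backgrounds, at a log2 value of -0.61 in siCTGF cells (-0.67 to -0.54) and -0.61 in siControl cells (-0.68 to -0.54). In the additive fit, ILK fell by 0.61 (SE 0.08, edgeR adjusted p = 6.02e-04). ILK shares 4582 bases of its span with TAF10, a subunit of TFIID encoded on the opposite strand. TAF10 had 1206 and 1099 counts in siCTGF and siControl cells with kahweol, against 2229 and 2257 in untreated siCTGF and siControl cells, a log2 fold change of -0.60 in siCTGF and -0.50 in siControl cells. TAF10 thus fell as well (additive log2 fold change -0.55, edgeR adjusted p = 0.00232), and the part of shared reads in either value was not tested.

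Zyxin (ZYX, gene ID 7791, chromosome 7, 143078438 to 143088204, plus strand, GRCh37) went the other way. It is a LIM protein that recruits actin regulators to strained stress fibers. It had 63.6 CPM in siCTGF and 56.4 CPM in siControl cells with kahweol, against 52.0 CPM in untreated siCTGF and 45.5 CPM in untreated siControl cells. The counts were 2823 and 2436 in siCTGF and siControl cells with kahweol, against 2812 and 2841 in untreated siCTGF and siControl cells. The size of the ZYX difference in CPM thus rests on the scaling. The log2 fold change was 0.29 in siCTGF cells (0.18 to 0.40) and 0.31 in siControl cells (0.20 to 0.42), under the 1.3-fold threshold in both. Over the alternatives of scaling, filter, prior count and unit, it ranged from 0.03 to 0.30 in siCTGF cells and from 0.08 to 0.32 in siControl cells. In the additive fit ZYX rose by 0.30 (SE 0.09, edgeR adjusted p = 0.0287), but 3 of the 7 alternative fits did not call it, and the adjusted p ranged over them from 0.0149 to 0.0755. On the opposite strand, FAM131B shares 960 bases of its span and had only 18 to 41 counts.

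The start site regions of these 3 genes are shown because 2 of them fell and 1 rose with kahweol. They are the promoter windows of RefSeq in GRCh38.p14, each of 300 bases, 250 before and 50 after the start, on the plus strand. Capitals mark the GC box letters GGGCGG and the letters GGAATG of the TEAD motif, searched on both strands, so that CCGCCC is a GC box on the other strand. In the VCL window, which lies at chr10:73997866-73998165, there were 3 GC boxes and 1 TEAD motif that begins 171 bases before the start. The ILK window, at chr11:6603524-6603823, held 2 GC boxes that overlap by 1 base. In the ZYX window, at chr7:143381095-143381394, 5 GC boxes were found.
VCL: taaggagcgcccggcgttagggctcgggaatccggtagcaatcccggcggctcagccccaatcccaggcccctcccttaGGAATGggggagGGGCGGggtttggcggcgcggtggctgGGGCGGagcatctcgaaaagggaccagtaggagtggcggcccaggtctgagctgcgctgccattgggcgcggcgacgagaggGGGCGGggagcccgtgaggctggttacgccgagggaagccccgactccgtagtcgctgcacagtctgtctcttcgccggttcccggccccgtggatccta
ILK: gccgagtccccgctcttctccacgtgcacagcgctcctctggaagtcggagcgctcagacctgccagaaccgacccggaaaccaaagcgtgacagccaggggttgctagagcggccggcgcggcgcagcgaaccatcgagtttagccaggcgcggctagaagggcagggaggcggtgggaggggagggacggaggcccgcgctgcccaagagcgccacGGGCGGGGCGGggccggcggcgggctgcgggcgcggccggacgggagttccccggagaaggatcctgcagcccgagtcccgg
ZYX: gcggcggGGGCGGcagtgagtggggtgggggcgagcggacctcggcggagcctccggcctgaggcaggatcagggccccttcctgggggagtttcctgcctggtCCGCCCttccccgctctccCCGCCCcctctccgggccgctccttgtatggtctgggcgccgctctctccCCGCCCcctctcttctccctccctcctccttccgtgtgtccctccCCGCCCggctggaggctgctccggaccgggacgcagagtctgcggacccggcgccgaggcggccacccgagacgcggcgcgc
These windows had a GC content of 69.3% for VCL, 73.0% for ILK and 76.0% for ZYX, against a median of 58.7% over all 35116 windows of the table. GC boxes were found in 45% of all windows and the TEAD letters in 14.0%. GC boxes were thus held by both genes that fell and by the gene that rose. Of the other members, TLN1 had 1 GC box and TLN2 had 0, at 70.3% and 76.0% GC. PXN, which fell, had 8 GC boxes in one window (81.3% GC) and 0 in the other, which held 1 TEAD motif, and 4 of the 5 windows of BCAR1 held GC boxes. The AP-1 letters TGANTCA, found in 7.71% of all windows, were seen in none of the 3 windows printed and in 1 of 5 windows of BCAR1. A CArG box and the letters TATAAA, present in 1.29% and 11.5% of all windows, were in none of the members' windows. A match is a description of these letters and not evidence of a bound factor.

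Of the talins, TLN2 fell with kahweol and TLN1 was not called, while the difference between them was not tested. Talin 1 (TLN1, gene ID 7094, chromosome 9, 35696945 to 35732192, minus strand, GRCh37) is the main talin of most cells and the link from integrin to actin. It was at 500 CPM in siCTGF and 541 CPM in siControl cells with kahweol, against 559 CPM in siCTGF and 574 CPM in siControl cells without it. The log2 fold change of TLN1 was -0.16 in siCTGF cells (-0.20 to -0.12) and -0.09 in siControl cells (-0.12 to -0.05), and the additive fit did not call it (-0.12, SE 0.06, edgeR adjusted p = 0.153). Talin 2 (TLN2, gene ID 83660, chromosome 15, 62939510 to 63136830, plus strand, GRCh37), the form that is better known from muscle and brain, was far less abundant. It had 20.8 CPM in siCTGF and 24.0 CPM in siControl cells with kahweol, against 28.8 CPM in siCTGF and 34.8 CPM in siControl cells without it. Its log2 fold change was -0.47 in siCTGF cells (-0.64 to -0.30), just inside the 0.7-fold threshold, and -0.53 in siControl cells (-0.69 to -0.38), just past it. TLN2 fell by 0.50 in the additive fit (SE 0.10, edgeR adjusted p = 0.00432).

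Among the scaffolds other than ILK, paxillin fell with kahweol and p130Cas was not called. Paxillin (PXN, gene ID 5829, chromosome 12, 120648242 to 120703574, minus strand, GRCh37) is an adaptor that docks FAK, vinculin and the GIT-PIX complex. It had 101 CPM in siCTGF and 103 CPM in siControl cells with kahweol, against 137 CPM in siCTGF and 130 CPM in siControl cells without it. PXN fell by 0.39 in the additive fit (SE 0.09, edgeR adjusted p = 0.00711), with log2 fold changes of -0.44 in siCTGF cells (-0.52 to -0.37) and -0.34 in siControl cells (-0.41 to -0.26), inside the thresholds in both. The antisense gene PXN-AS1, which shares 2390 bases with it, had 37 and 50 counts in siCTGF and siControl cells with kahweol, against 183 and 195 counts in untreated siCTGF and siControl cells. PXN-AS1 fell by 1.72 in the additive fit (SE 0.36, edgeR adjusted p = 0.00604). Its counts were small beside the 4437 to 8120 counts of PXN. BCAR1 (gene ID 9564, chromosome 16, 75262079 to 75301905, minus strand, GRCh37) encodes p130Cas, a substrate of FAK and SRC that couples plaques to CRK and RAC. It was at 108 CPM in siCTGF and 111 CPM in siControl cells with kahweol, against 106 CPM in siCTGF and 113 CPM in siControl cells without it. Its log2 fold change was 0.03 in siCTGF cells (-0.05 to 0.10) and -0.03 in siControl cells (-0.11 to 0.05), and the additive fit gave 0.00 (SE 0.08, edgeR adjusted p = 0.985).

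Of the kinases, PTK2B fell and SRC rose with kahweol, and PTK2 was not called. PTK2 (gene ID 5747, chromosome 8, 141667999 to 142012178, minus strand, GRCh37) encodes FAK, the kinase that is phosphorylated when integrins engage. Its mRNA was at 167 CPM in siCTGF and 164 CPM in siControl cells with kahweol, against 171 CPM in siCTGF and 163 CPM in siControl cells without it. The 4 libraries overlapped, and the log2 fold change of PTK2 was -0.03 in siCTGF cells (-0.09 to 0.03) and 0.01 in siControl cells (-0.05 to 0.07), with an additive value of -0.01 (SE 0.08, edgeR adjusted p = 0.929). PTK2B (gene ID 2185, chromosome 8, 27168995 to 27316908, plus strand, GRCh37) encodes Pyk2, a calcium-responsive relative of FAK that is best known from hematopoietic and neural cells. It had 4.23 CPM in siCTGF and 4.63 CPM in siControl cells with kahweol (188 and 200 counts), against 11.4 CPM in siCTGF and 12.6 CPM in siControl cells without it (615 and 787 counts). This was the largest change among the 10 genes. It came to a log2 fold change of -1.42 in siCTGF cells (-1.77 to -1.08) and -1.44 in siControl cells (-1.77 to -1.12), or 0.375-fold and 0.370-fold. PTK2B fell by 1.43 in the additive fit (SE 0.17, edgeR adjusted p = 4.57e-04). The 5 leukocyte markers, 2 of them at 0 in each library, summed to 1.05 and 1.1 TPM in siCTGF and siControl cells with kahweol and to 0.963 and 1.89 TPM in untreated siCTGF and siControl cells.

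SRC (gene ID 6714, chromosome 20, 35973088 to 36033835, plus strand, GRCh37), the kinase that docks on phosphorylated FAK, was the only member over 1.3-fold in any comparison. It had 36.5 CPM in siCTGF and 38.2 CPM in siControl cells with kahweol, against 30.0 CPM in siCTGF and 25.4 CPM in siControl cells without it. The counts themselves were nearly level, at 1588 to 1650 in all 4 libraries, and the libraries with kahweol had the smaller totals, so the size of the difference in CPM rests on the scaling. The log2 fold change was 0.28 in siCTGF cells (0.14 to 0.43; 1.22-fold) and 0.59 in siControl cells (0.45 to 0.73; 1.5-fold). Over the alternatives of scaling, filter, prior count and unit, these values ranged from 0.02 to 0.29 in siCTGF cells and from 0.34 to 0.60 in siControl cells. The lowest values were on the TPM scales. SRC rose by 0.44 in the additive fit (SE 0.11, edgeR adjusted p = 0.0123).

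**Figure D2:**
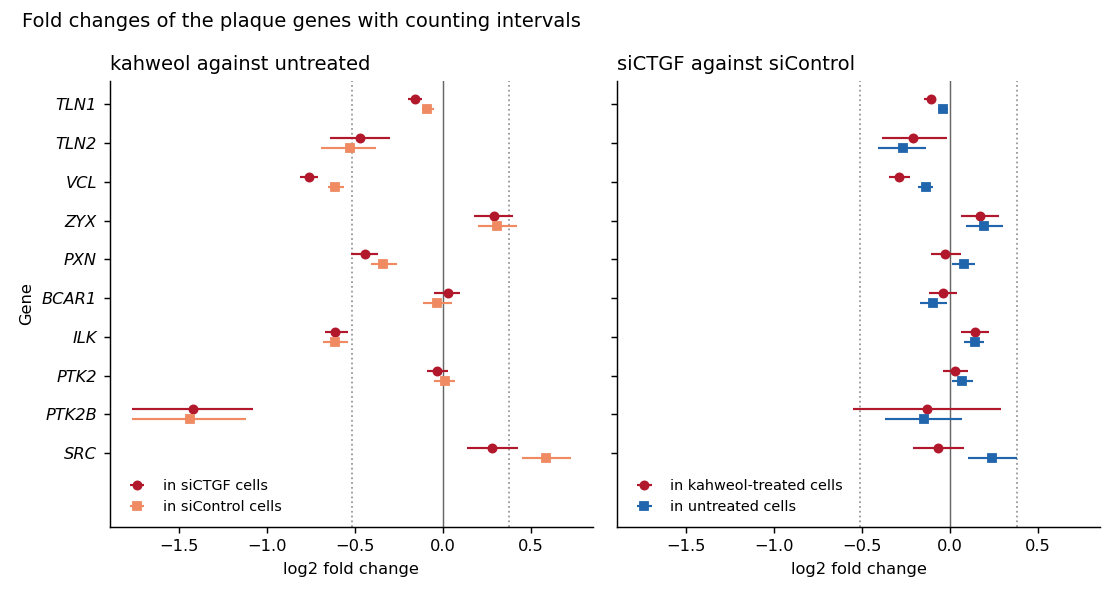
Log2 fold changes of the 10 plaque genes, kahweol against untreated (left) and siCTGF against siControl (right); points are differences between 2 single libraries, bars are 95% counting intervals, and dotted lines mark 0.7-fold and 1.3-fold. VCL, ILK and PTK2B lie left of the lower line in both kahweol comparisons, and no gene lies past a line for siCTGF.

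Ratios between genes within a library do not depend on the scaling between libraries. PTK2B amounted to 2.81% and 2.94% of the TPM of PTK2 in siCTGF and siControl cells with kahweol, against 8.02% and 9.29% in untreated siCTGF and siControl cells. The talins gave a smaller shift, with TLN2 at 3.07% and 3.28% of TLN1 in siCTGF and siControl cells with kahweol, against 3.81% and 4.48% in untreated siCTGF and siControl cells. VCL stood at 0.625 of the TPM of TLN1 in siCTGF and 0.693 in siControl cells with kahweol, against a nearly equal level without it, at 0.946 in siCTGF and 1.02 in siControl cells. ILK stood at 2.1 times PTK2 in siCTGF and 1.96 times in siControl cells with kahweol, against 3.23 and 3.09 times in untreated siCTGF and siControl cells. ZYX had 0.787 and 0.583 of the TPM of VCL in siCTGF and siControl cells with kahweol, against 0.381 and 0.302 in untreated siCTGF and siControl cells. In each of these 5 ratios, both kahweol libraries lay on one side of both untreated libraries. How often other pairs of genes do so was not computed.

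**Figure D3:**
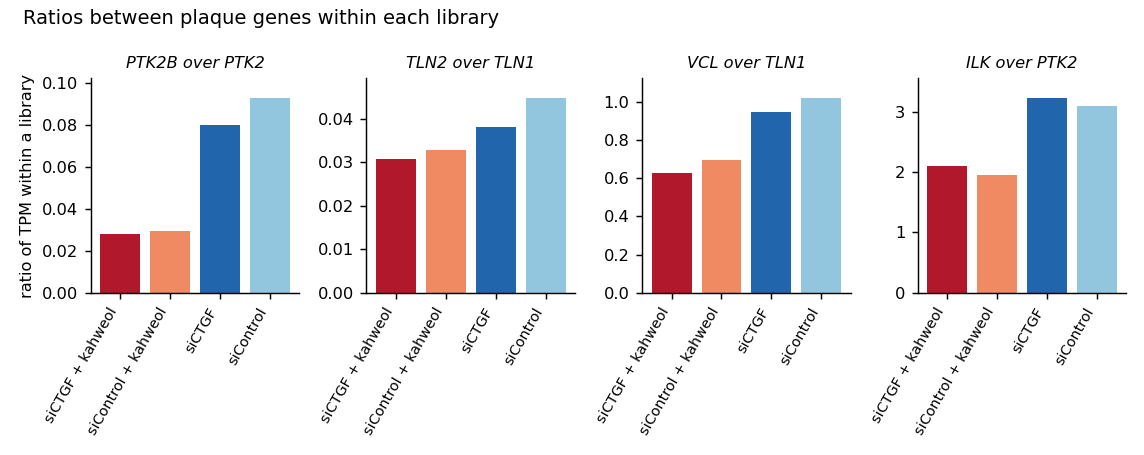
Ratios of TPM within each of the 4 libraries for PTK2B over PTK2, TLN2 over TLN1, VCL over TLN1 and ILK over PTK2, 1 bar per library and axes from 0. Both kahweol bars are below both untreated bars in each of these 4 panels, most of all for PTK2B over PTK2 (0.0281 and 0.0294 with kahweol, 0.0802 and 0.0929 without).

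Whether kahweol acted alike in siCTGF and siControl cells could be described but not tested, because no condition has a replicate. The kahweol log2 fold change in siCTGF cells minus that in siControl cells lay between -0.15 and 0.06 for the 9 genes other than SRC. For PTK2B and ILK it was 0.02 and 0.00. For VCL it was -0.15, with the decrease somewhat larger in siCTGF cells, and for SRC it was -0.30, with the increase smaller in siCTGF cells. CTGF itself had a difference of -1.23.

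The second question was whether depletion of CTGF moved the plaque genes. No gene of the 10 passed a fold threshold. In kahweol-treated cells, 0 of 10 were over 1.3-fold and 0 under 0.7-fold, beside 14.7% and 7.83% of all genes. In untreated cells the counts were also 0 and 0, beside 9.63% and 8.99% of all genes. The median log2 fold change of the 10 genes was -0.05 with kahweol and 0.02 without. The additive fit called 0 of 10 by edgeR's quasi-likelihood test, beside 0.127% of all genes. DESeq2 and limma-voom called 0 as well, beside 0.771% and 0.361% of all genes. At an unadjusted p under 0.05, 2 of the 10 were counted, VCL and TLN2, beside 9.92% of all genes.

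VCL was below its siControl level with and without kahweol, at log2 fold changes of -0.29 (-0.35 to -0.23) with kahweol and -0.14 (-0.18 to -0.10) without, but it was not called (edgeR adjusted p = 0.384). TLN2 had log2 fold changes of -0.21 (-0.39 to -0.02) with kahweol and -0.27 (-0.41 to -0.14) without (edgeR adjusted p = 0.474). For TLN1, the values were -0.11 (-0.15 to -0.08) with kahweol and -0.04 (-0.07 to -0.01) without. The counting intervals of these 3 linkers excluded 0 in both pairs, which bears on counting error only and not on the spread between cultures. ZYX, in contrast, had 0.17 in kahweol-treated cells (0.06 to 0.28) and 0.19 in untreated cells (0.09 to 0.30), and ILK 0.14 (0.06 to 0.22) and 0.14 (0.08 to 0.19). Neither was called (edgeR adjusted p = 0.576 and 0.626). The kinases gave no common direction. PTK2 was at 0.03 with kahweol (-0.04 to 0.10) and 0.07 without (0.01 to 0.13), PTK2B at -0.13 (-0.55 to 0.29) and -0.15 (-0.37 to 0.07), and SRC at -0.07 (-0.21 to 0.08) and 0.24 (0.10 to 0.38). For the scaffolds, PXN had -0.03 (-0.11 to 0.06) with kahweol and 0.08 (0.01 to 0.14) without, and BCAR1 had -0.04 (-0.12 to 0.04) and -0.10 (-0.17 to -0.02). For comparison, CTGF had a log2 fold change of -1.93 in the same fit (SE 0.25) and did not pass either (edgeR adjusted p = 0.0553), although 4 of the 7 alternative fits called it, so an uncalled gene cannot be read as unchanged at this design.

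The other genes of the plaque were taken from 8 lists of binding partners and relatives. Of 82 genes, 77 were tested, and 19 rose and 28 fell with kahweol in the additive fit by edgeR, 61.0% of them, while 46.6% of all genes tested were called. Their median log2 fold change was -0.07, against -0.01 over all genes. The lists did not share a direction.

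The actin linkers had the lowest median, -0.58, with 10 of 15 genes lower, 1 higher and 4 not called. TNS1 (tensin 1), a linker of integrin tails to actin in fibrillar adhesions, had 12 and 14.5 CPM in siCTGF and siControl cells with kahweol, against 24.8 and 29.5 CPM in untreated siCTGF and siControl cells (additive log2 fold change -1.03, edgeR adjusted p = 2.59e-04). PDLIM5, a PDZ-LIM protein of stress fibers, had 78.5 and 82.6 CPM in siCTGF and siControl cells with kahweol, against 162 and 163 CPM in untreated siCTGF and siControl cells (additive log2 fold change -1.02, edgeR adjusted p = 1.11e-04). For both genes, the siCTGF and siControl libraries of one treatment were closer to each other than to the libraries of the other treatment. Among the LIM proteins related to zyxin, 5 of 9 fell, 2 rose and 2 were not called, at a median of -0.38. LPP, one of these relatives, fell by 1.00 (edgeR adjusted p = 2.25e-04), so that it moved opposite to ZYX. TRIP6, named after its values were seen, was not called (additive log2 fold change 0.21, edgeR adjusted p = 0.0988). LPP had 63.5 and 47.6 CPM in siCTGF and siControl cells with kahweol, against 137 and 87.9 CPM in untreated siCTGF and siControl cells. CSRP1, a cysteine-rich LIM protein of the actin cytoskeleton, fell by 0.88 (edgeR adjusted p = 2.01e-04).

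Partners of talin and vinculin were mixed, with 3 higher, 5 lower and 5 not called of 13 and a median of 0.03. The kindlins, which activate integrins together with talin, did not share a direction: FERMT3 rose by 0.70 (edgeR adjusted p = 0.0149) and FERMT1 fell by 0.76 (edgeR adjusted p = 0.00127). FERMT2, named after its values were seen, was the most abundant of the 3 at 170 to 215 CPM and rose by 0.31 (edgeR adjusted p = 0.0107). FERMT3 is the kindlin known from blood cells and was at 11 CPM or less. In the complex around ILK, 1 of 6 rose, 2 fell and 3 were not called, at a median of -0.39. PARVB, a parvin that binds ILK, was past the fold threshold in both backgrounds at -0.90 each, but at 1.16 to 2.35 CPM it was not called (edgeR adjusted p = 0.0722). Around paxillin, 1 of 6 rose, 1 fell and 4 were not called. The one that fell was TGFB1I1 (Hic-5), a paxillin relative, with 12 and 11 CPM in siCTGF and siControl cells with kahweol, against 20.6 and 18.8 CPM in untreated siCTGF and siControl cells (additive log2 fold change -0.78, edgeR adjusted p = 0.00159).

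Partners of p130Cas had the highest median of the lists, 0.36, with 6 of 11 higher, 2 lower and 3 not called. The adaptors ELMO2, which activates RAC together with DOCK proteins, and NCK1, an SH2-SH3 adaptor, rose by 0.66 and 0.46 (edgeR adjusted p = 0.00120 and 0.00602). The exchange factors DOCK5 and DOCK1 fell by 0.76 and 0.57 (edgeR adjusted p = 6.13e-04 and 0.00148). The other SRC family kinases gave 2 of 5 higher, 0 lower and 3 not called. Of the 12 genes that restrain or tune the kinases, 3 rose, 3 fell and 6 were not called. CBLB, a ubiquitin ligase, had 15.5 and 21.5 CPM in siCTGF and siControl cells with kahweol, against 7.30 and 7.12 CPM in untreated siCTGF and siControl cells (additive log2 fold change 1.35, edgeR adjusted p = 5.15e-04). RB1CC1 (FIP200), known as a binding inhibitor of FAK and as an autophagy protein, rose by 0.88 (edgeR adjusted p = 1.15e-04), and the receptor phosphatase gene PTPRF fell by 0.71 (edgeR adjusted p = 4.40e-04). With siCTGF, 0 of the 77 genes were called by edgeR, and DESeq2 and limma-voom called 1 each, beside 0.771% and 0.361% of all genes. LPP was over 1.3-fold with siCTGF in both pairs, at log2 fold changes of 0.41 with kahweol and 0.64 without. The edgeR fit did not call it (adjusted p = 0.140). The gene called by DESeq2 and the gene called by limma-voom were on the list of LIM proteins related to zyxin, which holds LPP. At an unadjusted p under 0.05 were 12 of the 77 (15.6%), beside 9.92% of all genes.

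**Figure D4:**
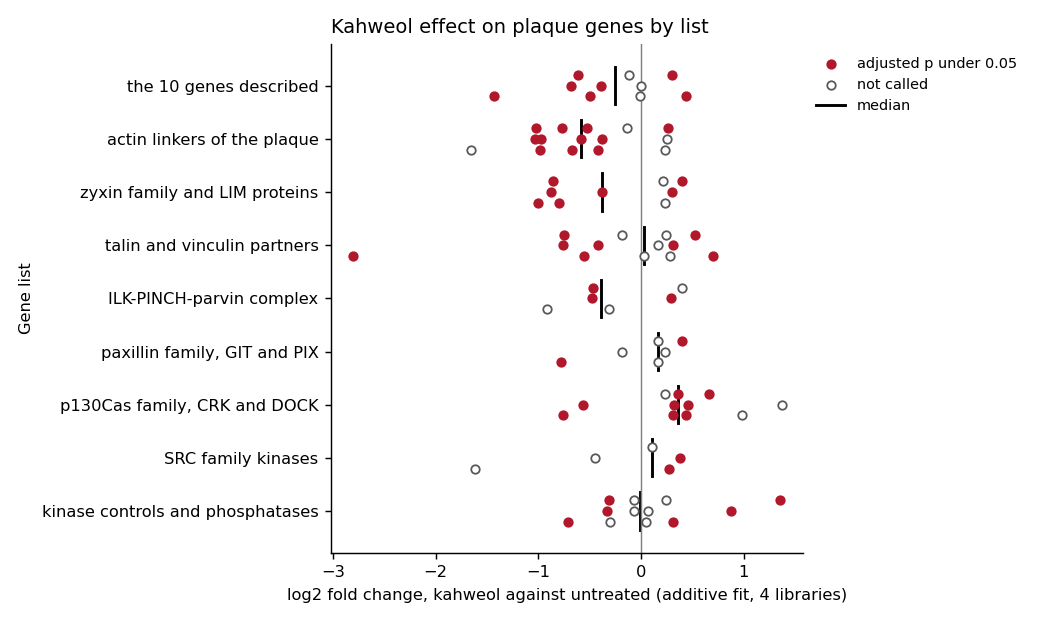
Log2 fold change of kahweol against untreated from the additive fit over 4 libraries, for the 10 genes described and the other plaque genes by list; each point is 1 gene, filled where the edgeR adjusted p was under 0.05, and the black bar is the median. The actin linkers have the lowest median (-0.58) and the p130Cas partners the highest (0.36).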

How the data were processed

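RNA of MDA-MB-231 cells was measured by stranded, rRNA-depleted RNA-Seq in 4 libraries. Per the submitters' processing notes, Trimmomatic 0.38, HISAT2 2.1.0, Bowtie2 2.3.4.1 and StringTie 2.1.3b were used with GRCh37.p13; the filters and the strand setting are not given in the sources used here, and the labels and the study's methods name different RNA extraction kits. The estimated counts per gene, as deposited by the authors, are whole numbers without normalization. FPKM and TPM were made by the authors with StringTie, and the deposited coverage signal served only to relate counts to reads (103.7 to 105.7 bases per count, so 2 reads were taken as 1 fragment). FPKM and TPM of the 2 kinds of tables differed by at most 0.000808.

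TMM scaling and the fits used edgeR 4.0.16 in R 4.3.3. A mean count of 10 was the minimum, which 16599 genes passed, and the prior count of the log2 CPM was 2. Fold changes between single libraries have 95% Clopper-Pearson intervals, which cover counting error only. With 44781516 to 59129784 counts per library these are narrow for abundant genes. The additive fit used the quasi-likelihood test of edgeR (2 libraries against 2, 1 residual degree of freedom, Benjamini-Hochberg adjusted p under 0.05). Alternatives were other scalings, filters, prior counts, units, folds and tools (DESeq2 1.42.0, limma 3.58.1).

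The genes and 15 lists, written from textbook knowledge, were chosen with earlier results of these data known. The text names all 10 genes, CTGF and cell type markers. Of the genes whose spans overlap theirs, it names those that are protein-coding and PXN-AS1. For each list it names no more than 2 genes higher and 2 lower past the thresholds in both comparisons of one effect. These had a minimum mean count of 50 and were taken in the order of their smaller change. AXL with kahweol, and FOSB and TAGLN with siCTGF, also met this rule and are not described for it. Promoter windows are from RefSeq (GRCh38.p14); 7 genes outside chromosome 8 had one. No coordinates were converted.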

Additional observations from a re-analysis of the deposited data

Results flagged for a closer look

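With TMM scaling, CTGF (CCN2) had kahweol fold changes of opposite sign in the 2 siRNA backgrounds. Its log2 fold change with kahweol was -1.0 in siCTGF cells (95% counting interval -1.13 to -0.87), with 1410 counts with kahweol and 3440 without. In siControl cells it was 0.23 (0.17 to 0.29), with 8052 counts with kahweol and 9927 without. The sign in siControl cells rested on the scaling: with alternatives chosen after seeing the data, the value in siControl cells ranged from 0.00 on both TPM scales (140 TPM with kahweol and 140 TPM without) to 0.24 with DESeq2 size factors, and that in siCTGF cells from -1.26 to -0.99. With 1 library per condition the difference was not tested. None of the 10 plaque genes had intervals clear of 0 on opposite sides in the 2 backgrounds.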

How the results depend on the processing

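Over 9 other scalings, filters, prior counts and units, none of the directions of the plaque genes with an interval clear of 0 turned round, and 272 of 360 fold changes stayed inside their counting intervals. The kahweol effect took either sign, at -0.23 to 0.03 for BCAR1 in siCTGF cells and -0.20 to 0.02 for PTK2 in siControl cells. Relative to TMM, the median of all genes in the kahweol comparisons shifted to -0.15 with total counts, to -0.18 in siCTGF and -0.17 in siControl cells on the log2(TPM + 1) scale, and to -0.25 and -0.24 with a pseudocount of 0.1. With these 3 scalings, 5 plaque genes were under 0.7-fold with kahweol in siCTGF cells, and with both TPM scales 0 were over 1.3-fold in siControl cells. ZYX lost its kahweol call with DESeq2 (adjusted p = 0.0523), with no filter in edgeR (0.0588) and in edgeR without the siRNA term (0.0755). The siCTGF effect called 128 of all genes with DESeq2, 60 with limma-voom, 75 with edgeR and DESeq2 size factors, 50 with edgeR at a mean count of at least 50 and 0 with edgeR without the kahweol term, while 0 of the 10 plaque genes were called in each. Leaving out a library was not run, since the additive fit would keep no residual degree of freedom. Depth limits PTK2B most, with 188 and 200 counts in kahweol-treated siCTGF and siControl cells.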

Other observations

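Among 18 tested targets of SRF, the transcription factor that many actin cytoskeleton genes share, 5 rose, 7 fell and 6 were not called with kahweol in the additive fit, at a median log2 fold change of -0.25. This was 66.7% of the list, beside 46.6% of all genes tested. The list holds SRF itself among the genes that rose, and it shares FLNA and FHL2 with the plaque lists. The 10 plaque genes had been taken out of every list, so their absence here does not bear on whether SRF targets them. The contractile genes TPM1 (tropomyosin 1) and MYL9 (myosin light chain 9) fell by 1.11 and 0.88 (edgeR adjusted p = 1.11e-04 and 3.93e-04). TPM1 had 58.3 and 55.5 CPM in siCTGF and siControl cells with kahweol, against 122 and 123 CPM in untreated siCTGF and siControl cells. The immediate early genes FOS and FOSB rose by 3.11 and 2.52 (edgeR adjusted p = 1.65e-05 and 2.45e-04). FOS had 52.0 and 40.0 CPM in siCTGF and siControl cells with kahweol, against 5.56 and 4.99 CPM in untreated siCTGF and siControl cells. With siCTGF, 0 of the 18 were called by edgeR, 6 (33.3%) were at an unadjusted p under 0.05, beside 9.92% of all genes, DESeq2 called 0, beside 0.771%, and limma-voom 1, beside 0.361%. CTGF, the target of the siRNA, is itself on this list. It is 1 of those 6 and the gene that limma-voom called, so these counts include the depletion itself.

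The 4 endothelial markers summed to 0.988 and 1.46 TPM in siCTGF and siControl cells with kahweol, against 2.31 and 3.01 TPM in untreated siCTGF and siControl cells. CDH5 had 9 and 8 counts in siCTGF and siControl cells with kahweol, against 79 and 110 counts in untreated siCTGF and siControl cells (edgeR adjusted p = 0.00298).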
